A study of Mus musculus with 12 samples.

Results

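Messenger RNA levels of 10 mouse genes for phosphatases of MAP kinases were followed through sorted cells of RasV12 brain tumors and of control cerebellum. The genes were Dusp2, Dusp4, Dusp5, Dusp6, Dusp7, Dusp8, Dusp9, Dusp10, Dusp14 and Dusp16, taken by symbol from a table of 54547 genes, in which each of the 10 had 1 row. MAP kinase phosphatases switch MAP kinases off by removing phosphate from both the threonine and the tyrosine of their activation loop. Several of them are induced by the kinases that they switch off, which closes a negative feedback loop downstream of Ras. The family falls into classes by place and target. Of the 10 genes, Dusp2, Dusp4 and Dusp5 are inducible phosphatases of the nucleus. Dusp6, Dusp7 and Dusp9 are cytoplasmic and prefer ERK, and Dusp8, Dusp10 and Dusp16 prefer JNK and p38. Dusp14 is an atypical member that lacks the domain by which the others bind MAP kinases.

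The 12 libraries formed 4 groups of 3, all from brain of mice on a mixed 129;C57BL/6 background that carried Msi1-CreER, a tamoxifen-inducible Cre recombinase under control of Msi1, a gene of neural stem and progenitor cells. RasV12 GFP+ cells and RasV12 CD11b+ phagocytes came from tumors of Msi1-CreER;RasV12 mice, in which an oncogenic Ras was expressed, and Control GFP+ cells and Control CD11b+ phagocytes from the cerebellum of Msi1-CreER;GFP mice. Tissue and genotype therefore differed together, and the labels give no age, tamoxifen schedule or sort gate. Whether replicates were separate mice is not stated in the labels, and a p-value here speaks for the spread among libraries, part of which may be technical.

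Itgam, the gene of CD11b, had 5116.8 ± 126.3 and 1936.1 ± 1009.1 normalized counts in Control and RasV12 CD11b+ cells and 0.0 and 0.2 ± 0.3 in Control and RasV12 GFP+ cells (mean ± SD, n = 3), which fits the labels of the sort. Msi1 had 58.7 ± 34.2 normalized counts in GFP+ cells of controls and 32.9 ± 12.4 in those of tumors. In CD11b+ cells it had 68.9 ± 106.4 in controls and 90.7 ± 156.5 in tumors, so its level did not tell the sorts apart. Counted back from the deposited values, GFP+ libraries held 18519240 to 32624399 reads in controls and 21227344 to 34432725 in tumors, and CD11b+ libraries 7883870 to 34601205 in controls and 2951629 to 23589310 in tumors. RasV12 CD11b+ 1 and 2 were the shallowest, and 1 read was worth 4.46 and 5.54 normalized counts there. In RasV12 GFP+ cells the summed markers of oligodendrocytes (11 of 11 listed genes in the table) ranged from 5425.0 to 18921.9, against 974822.1 to 1615357.1 in Control GFP+ cells, and those of neurons (12 of 12) from 2100.3 to 3231.2 against 81298.8 to 97863.1. The sums were also lower for astrocytes and Bergmann glia (10 of 10), at 41147.4 to 97167.3 against 276327.2 to 307045.9, for endothelial cells and pericytes (9 of 9), at 5524.4 to 7916.5 against 8716.2 to 11880.4, and for erythroid cells (5 of 5), at 82.9 to 506.8 against 8893.9 to 774410.0. Sox10 was at 0 in all RasV12 GFP+ libraries, while Olig1 and Olig2 of the same list averaged 2278.0 ± 1448.7 and 703.8 ± 558.5 there. These lists moved with every RasV12 comparison of GFP+ cells below, and their part in those results was not tested. In bulk RNA from sorted cells, fewer cells of a type and less RNA per cell cannot be told apart.

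In GFP+ cells, Dusp6 and Dusp4 were higher with RasV12. Dusp6, the cytoplasmic ERK phosphatase and a well-known ERK feedback gene, was 28.0-fold higher by group means, and Dusp4, a nuclear inducible phosphatase, 34.4-fold higher. The other 8 genes did not pass the test, although Dusp8, a JNK and p38 phosphatase, was lower in all 3 RasV12 libraries than in any control library. Of all genes tested 10.9% lay below all controls in this way, and 17.2% above them. Of the 10 genes 2 were called higher and 0 lower, at an adjusted p under 0.05 from limma, against 6.79% of all 29835 genes tested called in either direction (4.14% higher and 2.65% lower). Before adjustment the limma p of Dusp8 was 0.0342. The median log2 fold change of the 10 genes was 0.75, and that of all genes tested was 0.56.

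**Figure D1:**
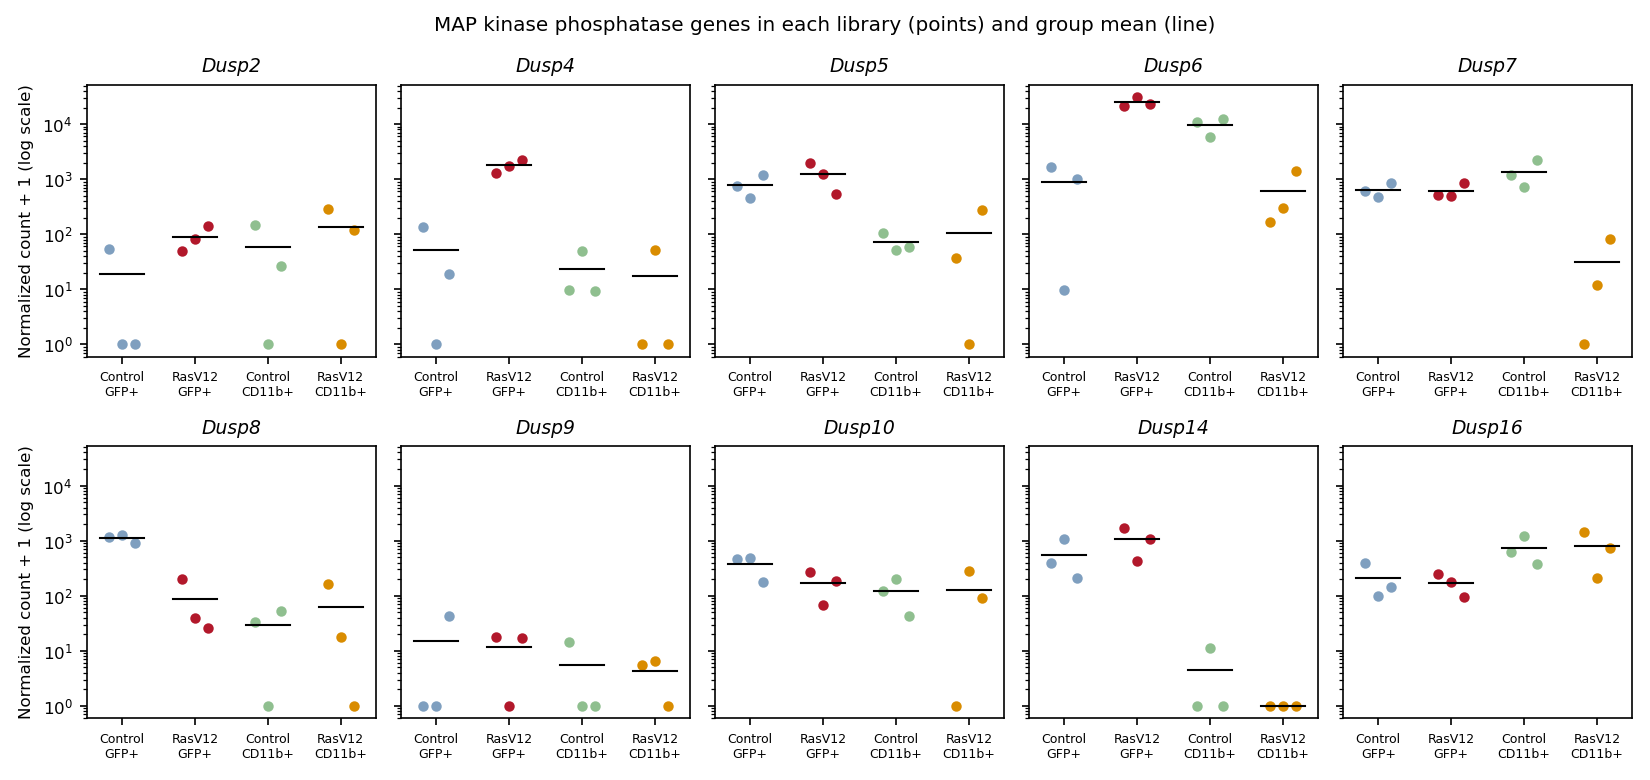
Each panel is 1 gene and each point 1 library, plotted as the normalized count + 1 on a log axis for the 4 groups of 3 libraries, with a line at the group mean. Dusp6 and Dusp4 stand highest in RasV12 GFP+ cells, Dusp7 lowest in RasV12 CD11b+ cells, Dusp8 highest in Control GFP+ cells, and Dusp14 is near or at 0 in CD11b+ cells.

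Among the nuclear inducible phosphatases, Dusp4 (chromosome 8, 34807297 to 34819894, GRCm38, forward strand) had 136.6, 0 and 18.3 normalized counts in Control GFP+ libraries 1 to 3. In RasV12 GFP+ libraries 1 to 3 it had 1306.0, 1770.7 and 2247.1. The groups were far apart, with the highest control library below the lowest RasV12 library. The log2 fold change was 6.97 ± 1.82 (SE; adjusted p = 0.0352), on the scale of log2(normalized count + 1). The call was lost without Control GFP+ 2 (log2 fold change 5.07, adjusted p = 0.128), Control GFP+ 3 (adjusted p = 0.0654) or RasV12 GFP+ 1, 2 or 3 (adjusted p = 0.0981, 0.108 and 0.111), and the log2 fold change was 8.62 without Control GFP+ 1. Over 18 alternatives Dusp4 passed in 9, with log2 fold changes of 5.07 to 8.62, so its direction held throughout and its side of the threshold did not.

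Dusp2 (chromosome 2, 127336159 to 127338376), another nuclear phosphatase first known from activated immune cells, had 53.5, 0 and 0 normalized counts in Control and 48.8, 81.4 and 137.7 in RasV12 GFP+ libraries. The ranges overlapped through Control GFP+ 1 (log2 fold change 4.45 ± 2.29, adjusted p = 0.326). Dusp5 (chromosome 19, 53529109 to 53542431), a nuclear phosphatase selective for ERK, had 744.8, 456.3 and 1192.3 in Control and 1970.8, 1216.4 and 548.6 in RasV12 GFP+ libraries. Its ranges overlapped widely (log2 fold change 0.57 ± 1.49, adjusted p = 0.918), and an interval of -2.64 to 3.78 (95%) leaves room for a change of several fold either way. Exons of an annotated antisense gene overlap Dusp5, and the library kit does not mark strand, so reads of these neighbours cannot be told apart.

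Among the cytoplasmic ERK phosphatases, Dusp6 (chromosome 10, 99263231 to 99267489, forward strand) had 1688.5, 8.8 and 1018.3 normalized counts in Control GFP+ and 21646.9, 31210.6 and 23173.2 in RasV12 GFP+ libraries. All RasV12 libraries lay more than 10-fold above the highest control library, and Control GFP+ 2 stood far below its own replicates. The log2 fold change was 6.61 ± 1.42 (adjusted p = 0.0134). Without Control GFP+ 2, in which 11 reads of Dusp6 were counted, it was 4.25 (adjusted p = 0.00461), and it was 7.97 and 7.60 without Control GFP+ 1 and 3. Without RasV12 GFP+ 2 the call was lost (adjusted p = 0.0546), as it was with edgeR on the recovered reads (log2 fold change 4.85, adjusted p = 0.0575), when only the 6 GFP+ libraries were fitted (adjusted p = 0.0576) and after subtraction of the background described with the CD11b+ cells (6.98, adjusted p = 0.305). Among the Control GFP+ libraries, replicate 2 was the single lowest for 5 of the 10 phosphatase genes and for 8 of 16 listed ERK target and feedback genes. It also had the fewest genes with a read, 17669 against 20444 and 21101 in replicates 1 and 3. The share of all genes that were lowest in replicate 2 was not counted, so these counts do not set the listed genes apart.

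Dusp7 (chromosome 9, 106368632 to 106375724), the closest relative of Dusp6 in place and target, showed no such pattern in GFP+ cells. It had 603.4, 468.4 and 864.7 normalized counts in Control and 519.8, 485.5 and 838.0 in RasV12 GFP+ libraries. The ranges nearly coincided, with a log2 fold change of -0.07 ± 1.2 (95% interval -2.65 to 2.51, adjusted p = 1) that turned to 0.47 after upper-quartile scaling. Dusp9 (chromosome X, 73639419 to 73643514), best known from placenta, was close to undetected, with 0, 0 and 41.7 in Control and 16.7, 0 and 16.1 in RasV12 GFP+ libraries.

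Among the phosphatases that prefer JNK and p38, Dusp8 (chromosome 7, 142079490 to 142095843, reverse strand), a gene of brain and heart, had 1181.9, 1267.9 and 894.2 normalized counts in Control GFP+ and 197.8, 37.8 and 24.7 in RasV12 GFP+ libraries. The groups did not overlap, and the means differed 12.8-fold. The log2 fold change was -4.24 ± 1.8 (adjusted p = 0.21) in the fit over all 12 libraries, and it passed when only the 6 GFP+ libraries were fitted (adjusted p = 0.0186) and with a pseudocount of 10 (adjusted p = 0.0395). Exons of an annotated noncoding gene on the other strand overlap Dusp8. Dusp10 (chromosome 1, 184013302 to 184075636) had 457.9, 474.0 and 179.1 in Control and 271.0, 67.6 and 180.6 in RasV12 GFP+ libraries, and Dusp16 (chromosome 6, 134715468 to 134792625) had 386.0, 97.0 and 144.5 against 247.5, 177.7 and 93.3. Ranges of both genes overlapped, with log2 fold changes of -1.18 ± 1.63 for Dusp10 and -0.13 ± 0.85 for Dusp16 (adjusted p = 0.797 and 0.998), and that of Dusp16 turned to 0.41 after upper-quartile scaling.

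Dusp14 (chromosome 11, 84048041 to 84069261), the atypical member, had 389.0, 1061.0 and 211.6 normalized counts in Control GFP+ and 1725.6, 430.5 and 1054.7 in RasV12 GFP+ libraries. Replicates of each group spread several fold and the groups overlapped (log2 fold change 1.05 ± 1.21, adjusted p = 0.75).

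Because these genes are read as targets of MAP kinase signalling, RefSeq promoter windows were searched for motifs of factors that MAP kinases act on. Windows were found for 8 of the 10 genes, Dusp4 and Dusp9 being named only. The 250 bases before each start were searched on both strands for the ETS core CCGGAA, the AP-1 site TGANTCA, the cyclic AMP response element TGACGTCA and the CArG box of serum response factor. These occur in 12%, 6.7%, 1.5% and 1.5% of 32851 such windows of the genome. Dusp6 and Dusp7 are shown because 1 of these relatives rose in RasV12 GFP+ cells and the other fell in RasV12 CD11b+ cells, and Dusp5 and Dusp8 because they hold 2 matches each, in capitals. Each is printed 5′ to 3′ on the gene's strand, from build GRCm38.p6, as Dusp6 chr10:99262981-99263230, Dusp7 chr9:106368382-106368631, Dusp5 chr19:53528895-53529108 and, on the reverse strand, Dusp8 chr7:142095285-142095534. The stretch of Dusp5 is 214 bases long and ends where the annotated gene begins, 36 bases short of the RefSeq start. The window of Dusp8 was not cut in this way. It lies wholly inside the annotated gene, which spans 142079490 to 142095843 on the reverse strand. The windows of Dusp10 and Dusp14 also lie inside their annotated genes.
Dusp6: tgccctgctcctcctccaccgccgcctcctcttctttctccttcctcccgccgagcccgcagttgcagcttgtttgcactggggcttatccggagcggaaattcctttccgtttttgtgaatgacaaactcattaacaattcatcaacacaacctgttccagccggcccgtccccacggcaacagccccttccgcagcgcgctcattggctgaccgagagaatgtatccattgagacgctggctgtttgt
Dusp7: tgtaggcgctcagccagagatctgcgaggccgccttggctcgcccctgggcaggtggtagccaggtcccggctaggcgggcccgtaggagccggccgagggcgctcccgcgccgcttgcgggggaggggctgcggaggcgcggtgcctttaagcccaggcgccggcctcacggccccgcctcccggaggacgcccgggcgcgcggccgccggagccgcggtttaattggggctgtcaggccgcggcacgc
Dusp5: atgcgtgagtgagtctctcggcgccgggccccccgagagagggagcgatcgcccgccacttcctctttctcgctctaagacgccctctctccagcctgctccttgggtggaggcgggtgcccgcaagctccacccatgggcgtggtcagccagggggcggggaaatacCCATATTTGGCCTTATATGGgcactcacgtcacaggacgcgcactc
Dusp8: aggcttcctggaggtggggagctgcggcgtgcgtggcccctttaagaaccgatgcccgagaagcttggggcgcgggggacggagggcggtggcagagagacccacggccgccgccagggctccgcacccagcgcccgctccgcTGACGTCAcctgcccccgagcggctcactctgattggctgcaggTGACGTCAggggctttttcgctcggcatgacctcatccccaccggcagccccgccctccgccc
Dusp5 holds a pair of adjacent CArG boxes, at bases -82 to -73 and -72 to -63 from the RefSeq start. Dusp8 holds 2 copies of the cyclic AMP response element, at -107 to -100 and -63 to -56. The cyclic AMP response element reads the same on both strands, the CArG pattern matched on both, and none of the matches overlap. The windows of Dusp6 and Dusp7 held none of the 4 motifs, which says only that these letters are not in these 250 bases. Dusp14 had 1 ETS core at -65 to -60, and Dusp2, Dusp10 and Dusp16 had no match. The windows of the 8 genes were 56.4% to 77.2% G and C, lowest in Dusp6 and highest in Dusp7, against a median of 52.4% over all windows.

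In CD11b+ cells, Dusp7 was lower with RasV12, and no phosphatase gene was called higher. Dusp7 was 44.6-fold lower by group means. Dusp6 was 15.6-fold lower by group means with no overlap between the groups and did not pass the test. Dusp6 and Dusp7 thus lay below all controls, as did 8.59% of all genes tested, while 19% lay above. Of the 10 genes 0 were called higher and 1 lower, against 5.36% of all genes tested in either direction (2.97% higher and 2.39% lower). The median log2 fold change of the 10 genes was -1.41, and that of all genes tested was 0.74.

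Dusp7 had 1210.3, 709.5 and 2190.2 normalized counts in Control CD11b+ libraries 1 to 3, from 1544, 474 and 5045 reads. In RasV12 CD11b+ libraries 1 to 3 it had 0, 11.1 and 81.1, from 0, 2 and 135 reads. Every tumor library lay below every control library. The depth of RasV12 CD11b+ 3 was within the range of the control libraries. Its mean FPKM of receptor genes, described below, was 3.962, against 0.305 to 2.514 in Control CD11b+ libraries. The part of depth and of this level was not tested. The log2 fold change was -6.95 ± 1.2 (adjusted p = 0.00886). It was -5.29 without RasV12 CD11b+ 1 and -8.47 without RasV12 CD11b+ 3, and -3.91 (adjusted p = 0.0214) without both shallow libraries, RasV12 CD11b+ 1 and 2. It passed in 18 of 19 alternatives, the exception being the fit of the 6 CD11b+ libraries alone (adjusted p = 0.0918). The 18 include the background subtraction described below, which set Dusp7 to 0 in every RasV12 CD11b+ library.

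Dusp6 had 10906.2, 5758.2 and 12349.1 normalized counts in Control CD11b+ and 164.9, 293.5 and 1402.3 in RasV12 CD11b+ libraries. All tumor libraries were lower than all control libraries, and RasV12 CD11b+ 3 was the nearest to them. The log2 fold change was -4.49 ± 1.42 (95% interval -7.55 to -1.43, adjusted p = 0.0781). Dusp6 passed with quantile normalization, a pseudocount of 10 and DESeq2 (adjusted p = 0.0145, 0.0316 and 0.0123) and in none of the other 16 alternatives. Without RasV12 CD11b+ 1 and 2 the log2 fold change was -2.71 (adjusted p = 0.476).

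The other 8 genes had overlapping ranges in CD11b+ cells. Dusp2 had 145.0, 0 and 25.6 normalized counts in Control and 280.7, 0 and 120.7 in RasV12 CD11b+ libraries, which shows a library without a read in each group. Dusp5 had 103.5, 50.9 and 56.9 against 35.7, 0 and 273.3, and Dusp4 had 8.6, 49.4 and 8.2 against 0, 49.8 and 0. Dusp16 was among the better detected members, with 615.4, 1221.4 and 377.3 in Control and 1457.2, 210.4 and 739.9 in RasV12 CD11b+ libraries (log2 fold change -0.11 ± 0.85, 95% interval -1.93 to 1.71). Dusp10 had 120.7, 202.1 and 41.2 against 0, 282.4 and 90.1, and Dusp8 had 32.1, 0 and 53.0 against 164.9, 16.6 and 0. Dusp14 was read in 1 Control CD11b+ library only, with 10.5 normalized counts, and in none of the RasV12 CD11b+ libraries. Dusp9 had at most 13.3 normalized counts in any CD11b+ library. Adjusted p for these 8 genes ranged from 0.459 for Dusp4 to 0.95 for Dusp16.

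**Figure D2:**
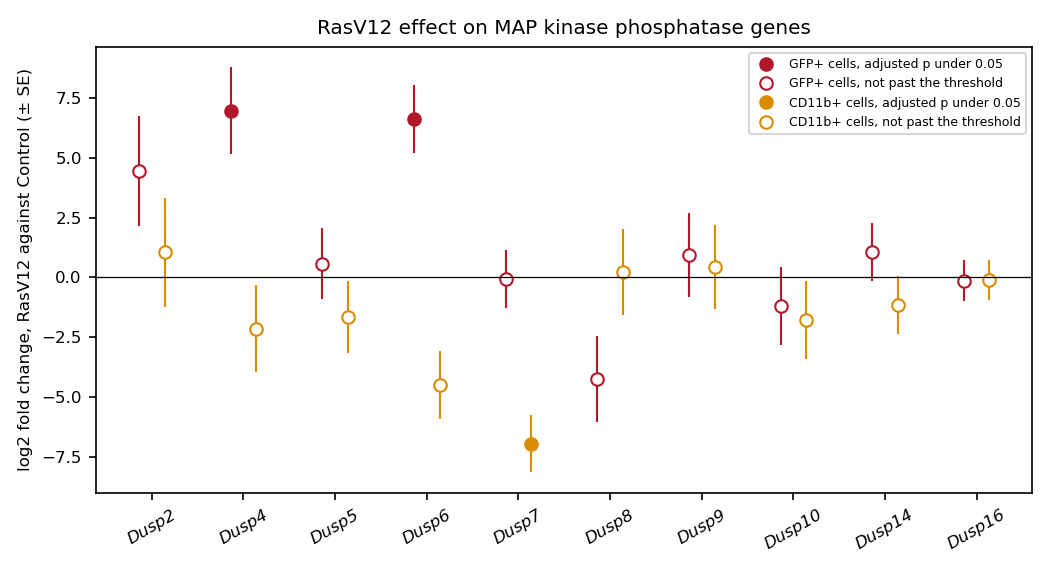
Points are log2 fold changes of RasV12 against Control for each gene, with bars of 1 SE from the fit over 12 libraries, in GFP+ cells (red) and CD11b+ cells (orange), filled where the adjusted p is under 0.05. Dusp4 and Dusp6 are filled in GFP+ cells at 6.97 and 6.61, and Dusp7 in CD11b+ cells at -6.95, while the points of most other genes lie within about 1 to 2 SE of 0.

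The effect of RasV12 differed between the cell types for Dusp6 and Dusp7. The difference of the log2 fold changes, CD11b+ minus GFP+, was -11.1 ± 2.01 for Dusp6 (adjusted p = 0.00837) and -6.88 ± 1.7 for Dusp7 (adjusted p = 0.0369). Of the 10 genes 0 had a higher and 2 a lower value in this test, against 4.4% of all genes tested in either direction (2.06% higher and 2.34% lower). For Dusp6 the 2 effects had opposite signs, 6.61 in GFP+ and -4.49 in CD11b+ cells. For Dusp7 they were -0.07 in GFP+ and -6.95 in CD11b+ cells. Dusp4 missed the threshold, at -9.12 ± 2.58 (adjusted p = 0.063), and passed in 6 of 24 alternatives. The Dusp6 difference passed in 23 of 24 alternatives, was -8.74 without Control GFP+ 2 (adjusted p = 0.00046) and did not pass without RasV12 CD11b+ 1 and 2 (-9.32, adjusted p = 0.0836). The Dusp7 difference passed in 13 of 24 and was lost without any 1 of Control GFP+ 1 to 3, RasV12 GFP+ 1 to 3, Control CD11b+ 1 and 3 or RasV12 CD11b+ 2 (adjusted p = 0.0516 to 0.108).

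Several technical measures moved with the CD11b+ comparison. Genes of olfactory, vomeronasal and taste receptors, 2028 in the table, are not known for high expression in brain cells or phagocytes. Their mean FPKM, a level scaled to transcript length, was 0.305, 2.514 and 0.315 in Control CD11b+ 1 to 3 and 5.374, 5.715 and 3.962 in RasV12 CD11b+ 1 to 3, against 0.057 to 0.239 in GFP+ libraries. In RasV12 CD11b+ libraries 2, 0 and 3 of the 10 phosphatase genes lay above that mean, against 7, 4 and 7 in Control CD11b+ and 7 to 10 in GFP+ libraries. Most phosphatase values in RasV12 CD11b+ cells were therefore below the mean level of receptor genes. That mean was itself higher there, and the share of all genes above it was not counted. These counts therefore do not set the phosphatase genes apart from other genes.

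By gene, 36.2%, 26.1% and 2.4% of the receptor genes had an FPKM at or above that of Dusp6 in RasV12 CD11b+ 1 to 3. For Dusp7 the shares were 100%, 52.2% and 38.8%, so Dusp7 was at or below the middle of the receptor genes in 2 libraries and above it in the third. In 1 alternative the receptor mean was subtracted from every gene, with results under 0 set to 0. Dusp7, at an FPKM of 0, 0.2 and 1.4 in RasV12 CD11b+ 1 to 3, lay below that mean, so all 3 values had to become 0. Its log2 fold change of -10.15 (adjusted p = 5.78e-06) carries this step and is no separate evidence of a lower level. Dusp6 was at 0, 0 and 1195.4 normalized counts (-9.75, adjusted p = 0.063). The summed microglia and macrophage markers (13 of 14 listed genes in the table) also moved with the comparison, from 253323.1 to 711398.3 in Control to 75263.7 to 114703.2 in RasV12 CD11b+ libraries. The summed neutrophil markers (8 of 8) were 12080.8 to 23961.8 in Control and 1506.2 to 2541.9 in RasV12 CD11b+ libraries. Elane and Ly6g, at means of 11.7 and 51.8 in Control, were at 0 there, while the mean of Mpo was higher, 128.5 against 72.3. Endothelial and pericyte markers (9 of 9) summed to 652.5 to 2567.0 in Control and 4621.2 to 5133.9 in RasV12 CD11b+ libraries. Oligodendrocyte markers (11 of 11) summed to 13384.2 to 15750.7 in Control and 6007.2 to 9586.5 in RasV12 CD11b+ libraries. Cldn11 and Olig2, at means of 34.2 and 9.9 in Control, were at 0 there, while the mean of Olig1 was higher, 293.2 against 60.8. Those of neurons and of astrocytes and Bergmann glia overlapped between the groups. Their part in the results for Dusp6 and Dusp7 was not tested.

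**Figure D3:**
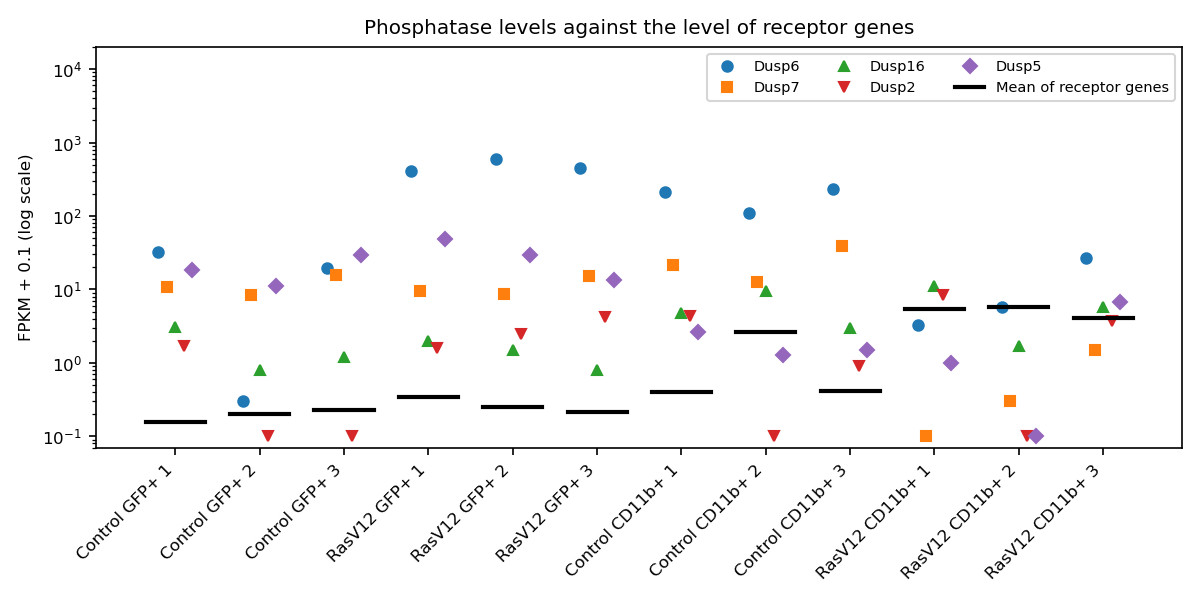
Each column is 1 library, with the FPKM + 0.1 of 5 phosphatase genes on a log axis and a black bar at the mean of the 2028 receptor genes plotted the same way. In GFP+ libraries the bar lies below 0.4 and under nearly all points, while in RasV12 CD11b+ libraries it rises to about 4 to 6 and the points of Dusp7 fall below it.

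Between cell types of the same tissue, 5 phosphatase genes were lower in CD11b+ than in GFP+ cells of the tumors, namely Dusp4, Dusp5, Dusp6, Dusp7 and Dusp14. Of the 10 genes 0 were called higher and 5 lower, against 40.1% of all genes tested in either direction (29.8% higher and 10.2% lower). In all 5 every phagocyte library lay below every GFP+ library, as in 14.8% of all genes tested, while 36% lay above. The median log2 fold change of the 10 genes was -4.01, where that of all genes tested was 1.79. For all genes it was 1.5 after upper-quartile scaling, 0.3 after quantile normalization and 1.15 with edgeR. The mean FPKM of receptor genes was 3.962 to 5.715 in RasV12 CD11b+ and 0.115 to 0.239 in RasV12 GFP+ libraries, and depth differed as well. The part of these measures in this comparison was not tested.

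For Dusp14 no read was counted in RasV12 CD11b+ cells, while RasV12 GFP+ cells had 1070.3 ± 647.7 normalized counts. Dusp14 was at least 193.3-fold lower in the phagocytes, with 3 reads over the group as the floor, all set in the library where a read is worth most (log2 fold change -9.85 ± 1.21, adjusted p = 0.000267). Dusp4 averaged 1774.6 ± 470.6 in GFP+ and 16.6 ± 28.8 in CD11b+ cells of the tumor (log2 fold change -8.87 ± 1.82, adjusted p = 0.00343). Both calls held in 19 of 19 alternatives.

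Dusp6 averaged 25343.6 ± 5138.0 in RasV12 GFP+ and 620.2 ± 680.3 in RasV12 CD11b+ cells (-5.93 ± 1.42 on the log2 scale, adjusted p = 0.00682). Dusp7 averaged 614.4 ± 194.4 and 30.7 ± 44.0 (-5.9 ± 1.2, adjusted p = 0.00325), and Dusp5 averaged 1245.3 ± 711.5 and 103.0 ± 148.6 (-5.67 ± 1.49, adjusted p = 0.0104). Without RasV12 CD11b+ 1 and 2, Dusp7 still passed (-2.86, adjusted p = 0.0277), while Dusp5 (-2.0, adjusted p = 0.124) and Dusp6 (-4.16, adjusted p = 0.179) did not. Without RasV12 CD11b+ 2 alone Dusp5 was at -3.45 and without RasV12 CD11b+ 3 at -7.5, both past the threshold. Dusp16 pointed the other way, at 172.8 ± 77.2 in GFP+ and 802.5 ± 625.8 in CD11b+ cells, and did not pass (log2 fold change 1.92 ± 0.85, adjusted p = 0.0833). Dusp2, Dusp8, Dusp9 and Dusp10 did not pass either (adjusted p = 0.258 to 0.655).

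In control cerebellum the cell types differed in another set of phosphatase genes. Dusp6 was higher in CD11b+ than in GFP+ cells, and Dusp8 and Dusp14 were lower. Of the 10 genes 1 was called higher and 2 lower, against 26.2% of all genes tested in either direction (19.3% higher and 6.91% lower). Groups did not overlap for Dusp6 (above), Dusp5, Dusp8 and Dusp14 (below), against 32.9% above and 12.7% below over all genes tested. The median log2 fold change of the 10 genes was -0.14, where that of all genes was 1.8. For all genes it was 2.31 after upper-quartile scaling, -0.02 after quantile normalization and 1.38 with edgeR.

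Dusp6 averaged 905.2 ± 845.5 in Control GFP+ and 9671.2 ± 3464.7 in Control CD11b+ cells, 10.7-fold higher in the phagocytes (log2 fold change 5.16 ± 1.42, adjusted p = 0.0187). It was thus higher in phagocytes than in GFP+ cells of the cerebellum and lower in phagocytes than in GFP+ cells of the tumor. The cerebellar difference was 2.81 without Control GFP+ 2 (adjusted p = 0.017) and lost its call without Control CD11b+ 1, 2 or 3 (adjusted p = 0.0505, 0.0512 and 0.0572), and it passed in 12 of 18 alternatives. Dusp14 averaged 553.9 ± 448.1 in GFP+ and 3.5 ± 6.1 in CD11b+ cells, 158.2-fold lower (log2 fold change -7.62 ± 1.21, adjusted p = 0.000904), and passed in 18 of 18 alternatives. Dusp8 averaged 1114.7 ± 195.7 and 28.4 ± 26.7, 39.2-fold lower (-6.51 ± 1.8, adjusted p = 0.0191). Its call was lost without Control GFP+ 2 (adjusted p = 0.0518) or Control CD11b+ 2 (-4.71, adjusted p = 0.0869).

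Dusp5 averaged 797.8 ± 370.9 in Control GFP+ and 70.4 ± 28.8 in Control CD11b+ cells with no overlap, and missed the threshold (log2 fold change -3.45 ± 1.49, adjusted p = 0.0993). Dusp7 averaged 645.5 ± 201.5 and 1370.0 ± 753.2 with overlapping ranges (0.98 ± 1.2, adjusted p = 0.541). The means of Dusp7 thus spanned 614.4 to 1370.0 in 3 of the 4 groups, and RasV12 CD11b+ cells stood apart from them at 30.7. The comparisons above share groups, so their values are not independent of each other.

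Compared per length as FPKM, the order of the 10 genes also differed between groups. In Control GFP+ cells Dusp5 (19.37), Dusp6 (17.33), Dusp14 (17.07), Dusp8 (13.73), Dusp7 (11.57) and Dusp10 (7.27) had mean levels within a few fold of each other, with overlapping ranges from each gene to the next. In RasV12 GFP+ cells Dusp6 stood alone at a mean FPKM of 485.37, with Dusp4 next at 38.87 and no overlap between them. Dusp4 (38.87), Dusp14 (33.0) and Dusp5 (30.2) overlapped with their neighbours, and Dusp8, among the leading genes of the control cells, was 9th at 1.07.

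In Control CD11b+ cells Dusp6 (185.23), Dusp7 (24.47) and Dusp16 (5.67) followed each other without overlap. In RasV12 CD11b+ cells the highest means were 11.9 for Dusp6, 6.17 for Dusp16 and 4.0 for Dusp2, and the ranges of all neighbours in the order overlapped. Dusp6, at 3.2 to 26.9, did lie above Dusp7, at 0 to 1.4, without overlap. In RasV12 CD11b+ 1 and 2 both genes lay below the mean of receptor genes, 5.374 and 5.715, so the order there is uncertain.

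Summed over the 10 genes, the FPKM was 104.4, 78.0 and 87.3 in Control GFP+ 1 to 3 and 565.0, 693.6 and 562.9 in RasV12 GFP+ 1 to 3. It was 245.3, 139.0 and 282.4 in Control CD11b+ and 25.8, 14.4 and 46.0 in RasV12 CD11b+ libraries. The sum was thus highest in tumor GFP+ cells and lowest in tumor phagocytes, with no overlap between any groups. In RasV12 CD11b+ 1 to 3 only 2, 0 and 3 of the 10 genes lay above the mean FPKM of receptor genes. The sum and the shares of that group thus rest mostly on values below this mean. Dusp6 made up 79.5% ± 6.4 of it in RasV12 GFP+ and 82.8% ± 3.0 in Control CD11b+ cells (SD, n = 3), but 17.8% ± 15.8 in Control GFP+ and 36.6% ± 23.1 in RasV12 CD11b+ cells. In Control GFP+ cells the largest mean shares were 21.6% ± 10.1 for Dusp5 and 20.3% ± 18.8 for Dusp14.

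**Figure D4:**
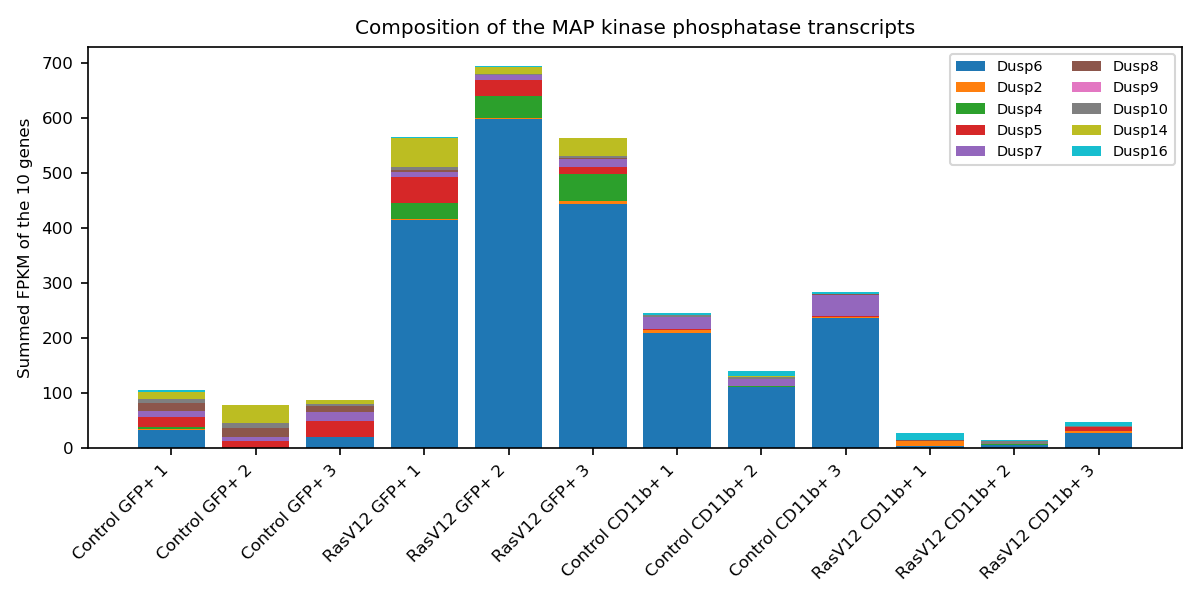
Stacked bars give the FPKM of the 10 genes in each of the 12 libraries, from a base of 0, with 1 color per gene. Dusp6 (blue) fills most of the bar in RasV12 GFP+ and Control CD11b+ libraries, while Control GFP+ bars are low and mixed and RasV12 CD11b+ bars do not exceed 46.0.

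The rest of the pathway was read from lists of other dual specificity phosphatases, MAP kinases, the kinases that activate them, and transcriptional targets and feedback genes of ERK. In GFP+ cells, of 17 other dual specificity phosphatases 0 were higher and 1 lower with RasV12 (median log2 fold change -0.19), of 14 MAP kinases 0 were higher and 1 lower (0.11), and of 21 activating kinases 1 was higher and 0 lower (0.59). Of 16 ERK target and feedback genes 4 were higher and 1 lower (3.97). Of these 4 lists the ERK list was the one whose median stood farthest from the 0.56 of all genes, and Dusp4 and Dusp6 moved the way of its 4 higher genes. A list chosen with results of these libraries known is no independent evidence of a direction.

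Among the phosphatases outside the 10 genes, Dusp26, an atypical phosphatase abundant in brain, went from 2227.0 ± 459.2 in Control to 18.8 ± 16.5 in RasV12 GFP+ cells (log2 fold change -7.68 ± 1.23, adjusted p = 0.00233). Dusp1, on the same list and thus not in the orders and sums above, stood at 1657.8 ± 117.9 and 1798.1 ± 1513.7. Among the substrates, Mapk4, the gene of the atypical kinase ERK4, fell from 2282.3 ± 996.0 to 330.5 ± 121.7 (-2.75 ± 0.76, adjusted p = 0.0449). Mapk3, the gene of ERK1, stood at 2060.3 ± 337.3 and 831.8 ± 247.5 (adjusted p = 0.0695), and Mapk11, the gene of p38 beta, at 49.5 ± 85.7 and 388.5 ± 85.9 (adjusted p = 0.0533). Upstream, Map3k20, the stress kinase ZAK, rose from 330.8 ± 183.3 to 1731.2 ± 587.9 (2.46 ± 0.62, adjusted p = 0.03). Among the ERK targets, Epha2, a receptor tyrosine kinase gene, rose from 12.6 ± 20.3 to 932.3 ± 733.4 (7.28 ± 1.46, adjusted p = 0.00904), together with Ccnd1, Spry4 and Fosl1. Etv1, an ETS factor, fell from 2235.8 ± 719.6 to 498.5 ± 10.3 (-2.11 ± 0.57, adjusted p = 0.0407); it is outside the rule for naming genes and was chosen after its values were seen.

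In CD11b+ cells the same lists had 0 higher and 3 lower of 17 other phosphatases, 1 higher and 0 lower of 14 MAP kinases, and 0 and 0 of both the 21 activating kinases and the 16 ERK target genes. The 3 lower phosphatase genes were Dusp28 (log2 fold change -5.23 ± 1.03, adjusted p = 0.0151), Dusp26 (-4.76 ± 1.23, adjusted p = 0.0412) and Ssh2, a cofilin phosphatase (-1.98 ± 0.52, adjusted p = 0.0441). The higher kinase gene was Mapk8, which encodes JNK1 (2.05 ± 0.51, adjusted p = 0.0371). These 4 genes were chosen after their values were seen. The median of the ERK list was -1.44 in CD11b+ and 3.97 in GFP+ cells. Between the cell types of the tumor, 13 of its 16 genes were lower in phagocytes and 1 higher. Of all genes tested 10.2% were lower there and 29.8% higher. The 5 phosphatase genes called in that comparison, Dusp4, Dusp5, Dusp6, Dusp7 and Dusp14, were lower as well.

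**Figure D5:**
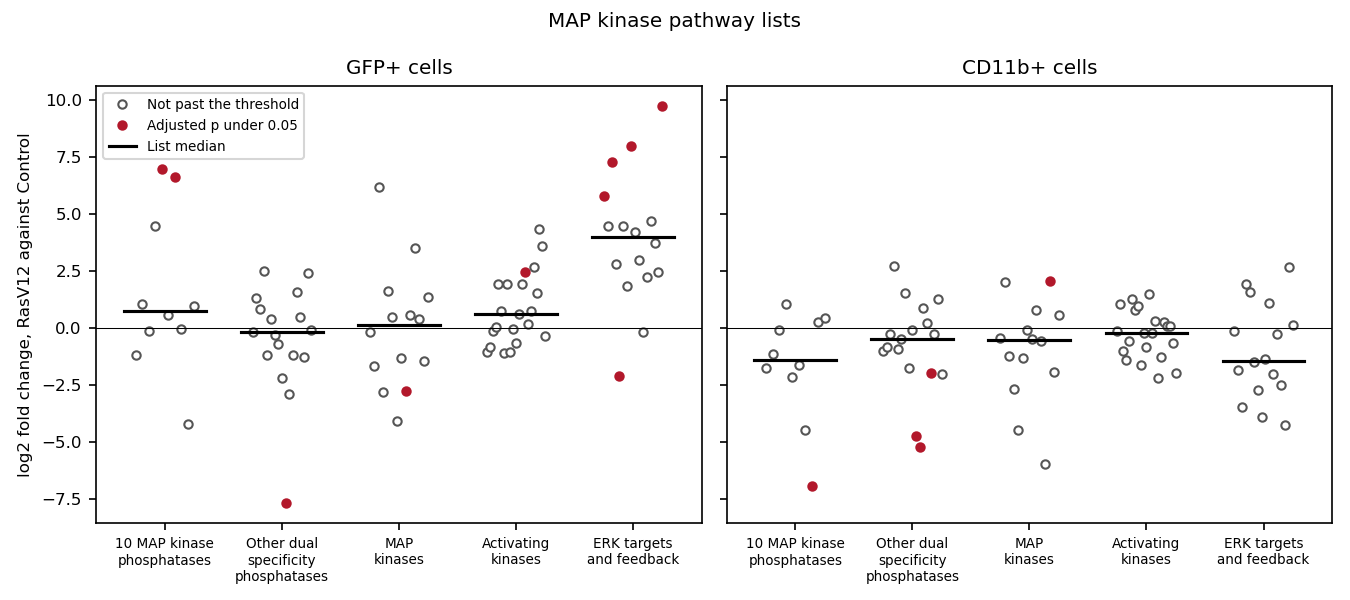
Each point is the log2 fold change of 1 gene, RasV12 against Control, in GFP+ cells (left) and CD11b+ cells (right), for the 10 phosphatases and 4 lists of pathway genes, filled where the adjusted p is under 0.05, with a line at the list's median. The ERK list has its median at 3.97 in GFP+ and -1.44 in CD11b+ cells, while the medians of the kinase lists and the other phosphatases stay between -0.52 and 0.59.

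Genes most like each phosphatase gene over the 4 group means were sought among 77 tested genes of these lists, by the root mean square difference of centred log2 group means. Nearest to Dusp6 was Epha2, at a difference of 0.49, and then Spry1, a feedback inhibitor of receptor tyrosine kinase signalling, at 1.42. Epha2 shared with Dusp6 its maximum in RasV12 GFP+ cells and its second place in Control CD11b+ cells, where it had 186.6 normalized counts. Nearest to Dusp4 were Mapk11 (0.51) and Fosl1 (0.72), both highest in RasV12 GFP+ cells. Nearest to Dusp8 were Mapk4 (0.77) and Mapk10, the gene of the neuronal kinase JNK3 (1.14), both highest in Control GFP+ cells. Dusp5 was nearest to Dusp15 (0.94) and Dusp18 (1.07), Dusp7 to Mapk13 (1.34) and Mapk7 (1.35), and Dusp14 to Dusp15 (1.63) and Dusp5 (2.1). At differences of 0.94 and more, those of Spry1 and Mapk10 included, the patterns were only loosely alike.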

How the data were processed

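Normalized counts and FPKM values deposited by the authors for 12 libraries were used. Per the labels' protocols, RNA was taken with Sepazol, cDNA with a SMARTer kit for low input, and libraries with Nextera XT, without marking strand. Per the submitters' processing notes, the tools were DESeq2 1.20.0, Subread 1.6.2 with featureCounts, HISAT2 2.1.0 and bcl2fastq 2.17.1.14, and the build GRCm38.p6; the sources used here do not give the role of each. The deposited normalized counts are a signal per gene divided by 1 factor per library: 100% of values were whole multiples of 1 step per library (tolerance 0.05), which gave the reads and depths stated. The deposited FPKM values served to compare levels between genes. Floors cover counting error only, and the 95% intervals come from the fit.

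Genes with at least 10 normalized counts in at least 3 libraries were tested, 29835 of 54547, and all 10 phosphatase genes passed this filter. Log2(normalized count + 1) of all 12 libraries was fitted with 1 mean per group in limma-trend, the main test (R 4.3.3, limma 3.58.1), Benjamini-Hochberg adjusted over all genes tested at 0.05; all tests are two-sided. This fit was first run on simulated counts with known fold changes and the same spread for all genes and libraries. That setting is simpler than these data, and no result here rests on it. Alternatives were the FPKM table (pseudocount 0.1), upper-quartile scaling, quantile normalization, pseudocounts of 10 and 0.1, no filter, a mean of at least 50, the 6 libraries compared, DESeq2 1.42.0 and edgeR 4.0.16 on recovered reads, the replicate number as a block, the mean FPKM of receptor genes subtracted, and leaving out each library; leaving out RasV12 CD11b+ 1 and 2 was added after seeing the data. The text names all 10 genes, up to 4 genes per list with the smallest adjusted p in GFP+ cells, and the 2 genes most like each called member. Dusp1, Etv1 and, in CD11b+ cells, Dusp28, Ssh2 and Mapk8 were named outside this rule, after their values were seen. Members and lists were chosen with earlier results of these data known. Gene positions are from GENCODE annotation of GRCm38, which held 98.5% of the gene IDs.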

Additional observations from a re-analysis of the deposited data

Results flagged for a closer look

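The effect of RasV12 on Dusp6 differed between the cell types, by a log2 difference of -11.1 (CD11b+ minus GFP+) in a test of the difference itself, with values higher in 3 of 3 RasV12 GFP+ libraries and lower in 3 of 3 RasV12 CD11b+ libraries than in any control library of the same cell type. The effect on Dusp7 differed too, by -6.88, with 3 of 3 RasV12 CD11b+ libraries below all controls and overlapping ranges in GFP+ cells. Depth and the level of receptor genes moved with the CD11b+ groups, and their part in these differences was not tested.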

How the results depend on the processing

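Of 972 log2 fold changes of the 10 genes recomputed under alternatives, 836 kept their direction and their side of the threshold. In RasV12 CD11b+ 1 and 2, where 1 read was worth 4.46 and 5.54 normalized counts, lower levels could not be measured. In GFP+ cells 1 in place of 2 of the 10 genes was called with a pseudocount of 0.1, no filter, background subtracted or the replicate block, and 0 with edgeR. In CD11b+ cells 2 in place of 1 were called with quantile normalization, a pseudocount of 10, background subtracted or DESeq2. The second gene was Dusp10 with background subtracted (log2 fold change -5.89, adjusted p = 0.00133) and Dusp6 in the other settings. The subtraction had set Dusp10 to 0 in every RasV12 CD11b+ library, which left no spread in that group. In the fit of 6 libraries 0 were called, and that fit gave 32 calls over all genes. Between the cell types 3 in place of 5 were called in tumors without RasV12 CD11b+ 1 and 2, and 1 in place of 3 in cerebellum with edgeR. For the difference of effects 1 in place of 2 was called with a pseudocount of 0.1, no filter or without RasV12 CD11b+ 1 and 2, and no fit of 6 libraries exists. Leaving out 1 library gave 0 to 2 called genes in GFP+ cells, 1 in CD11b+ cells, 5 to 6 in tumors, 1 to 3 in cerebellum and 1 to 2 for the difference. Over all genes the same fits gave 1042 to 1762, 373 to 5248, 8118 to 12501, 5160 to 6491 and 578 to 2227 calls, in that order. The cause was not tested.

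The labels do not say whether libraries with the same replicate number are paired. Deviations of libraries with the same number correlated at -0.03 to 0.09. In the GFP+ comparison 1 of 6 libraries correlated best with its own number, 4 in CD11b+, 5 in tumors and 2 in cerebellum. These values do not settle whether the numbers pair the libraries. With the replicate block 1855 in place of 2027 genes were called in GFP+ cells, 1 of them a phosphatase gene; Dusp4 then had an adjusted p of 0.057, and no other call among the 10 genes changed.

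Over all alternatives, calls over all genes numbered 1042 to 4907 in GFP+ cells (2027 in the main test), 32 to 5248 in CD11b+ cells (1599), 4652 to 13294 in tumors (11953), 3595 to 10850 in cerebellum (7826) and 578 to 3135 for the difference (1312). In GFP+ cells all genes had a median log2 fold change of 0.56, and 0.91 after upper-quartile scaling, -0.12 after quantile normalization and 0.49 with TMM. In CD11b+ cells it was 0.74, 0.19, 0.13 and 0.35. The share of calls that were higher was 60.9%, 76.2%, 49.3% and 62.2% in GFP+ cells, 55.4%, 29.6%, 30.5% and 6.9% in CD11b+ cells, 74.4%, 68.8%, 44.7% and 34.4% in tumors, 73.7%, 86.3%, 44.3% and 65.6% in cerebellum, and 46.9%, 19.1%, 39.8% and 25.4% for the difference, in the same order.

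Log2 fold changes turned sign for some genes that did not pass the main test of that comparison. For the RasV12 effect in GFP+ cells these were 0.47 for Dusp7 and 0.41 for Dusp16 with upper-quartile scaling, -0.16 for Dusp9 with quantile normalization, and 0.01 for Dusp7 and -0.26 for Dusp9 with edgeR. For the effect in CD11b+ cells they were -0.28 for Dusp8 with upper-quartile scaling, -0.17 for Dusp2, -1.34 for Dusp8 and -0.34 for Dusp9 with quantile normalization, and -0.02 for Dusp9 with a pseudocount of 10. With background subtracted they were -1.47 for Dusp2 and -2.63 for Dusp8, with edgeR -0.21 for Dusp8 and -1.82 for Dusp9, and with DESeq2 0.59 for Dusp5, 0.03 for Dusp10 and 0.12 for Dusp16. Without RasV12 CD11b+ 1 and 2 they were 2.01 for Dusp5, -3.6 for Dusp8, -1.28 for Dusp9 and 0.17 for Dusp16. Between the cell types of tumors they were -1.33 for Dusp16 with background subtracted, and for Dusp2 0.59 with DESeq2 and 0.55 without RasV12 CD11b+ 1 and 2. In cerebellum Dusp4 turned to -0.17 in the FPKM table, -2.21 with quantile normalization, -0.35 with a pseudocount of 10, -3.61 with background subtracted, -1.88 with edgeR and -1.24 with DESeq2. For the difference of effects Dusp10 turned to 0.12 in the FPKM table, 0.36 with a pseudocount of 10, 0.25 with edgeR, 1.13 with DESeq2 and 1.02 without RasV12 CD11b+ 1 and 2. There Dusp16 turned to -1.13 with upper-quartile scaling, -0.67 with quantile normalization, -3.13 with background subtracted and -0.34 with edgeR, and Dusp5 to 1.45 without RasV12 CD11b+ 1 and 2.

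Leaving out 1 library at a time spanned 0 as well. The ranges were -0.32 to 0.16 for Dusp7 and -0.56 to 0.43 for Dusp16 in GFP+ cells. In CD11b+ cells they were -0.94 to 3.56 for Dusp2, -3.49 to 0.56 for Dusp5, -1.56 to 2.15 for Dusp8, -0.2 to 1.72 for Dusp9, -3.41 to 0.66 for Dusp10 and -0.73 to 0.66 for Dusp16. Between cell types they were -2.91 to 1.16 for Dusp2 and -3.98 to 0.1 for Dusp10 in tumors, and -1.65 to 1.9 for Dusp4 and -1.81 to 1.28 for Dusp9 in cerebellum. For the difference of effects they were -2.31 to 0.78 for Dusp9, -2.23 to 1.84 for Dusp10 and -0.6 to 0.79 for Dusp16.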
